A study of Mus musculus with 6 samples.

Results

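Fhl1, Igsf10, Afp and Pop1 are 4 of the 13445 genes with enough reads to be tested in M1, a mouse neuroblastoma cell line, and they were chosen by their expression in the same 6 libraries that are described here. The rule took genes for which each of the 3 libraries labelled shIGF2BP1 had a higher normalised level (CPM, the counts scaled to a common library size) than each of the 3 libraries labelled shNT. Of the 13445 genes, 815 met that rule upwards, which is 6.06%, and 751 met it downwards, which is 5.59%. Scaled by library size only, the split was 1212 upwards and 480 downwards. Of the 815, 35 (0.26% of all genes tested) also had a mean of at least 5 CPM and a log2 fold change of at least 1. The 4 genes are the 4 of those 35 with the widest gap between groups, measured as the lowest shIGF2BP1 value over the highest shNT value. Because that gap chose them, their differences between the groups are given as a description, without a test.

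The cells were wild type with a non-targeting short hairpin RNA (shNT) or carried a hairpin against Igf2bp1 (shIGF2BP1, labelled as an IGF2BP1 knockdown), with 3 libraries each. In both groups the hairpin was switched on with doxycycline at 4 to 6 µg/ml for 6 days, and the controls therefore received the drug as well. The labels name a single hairpin against Igf2bp1 and do not say whether the replicates were separate cultures, so the spread between libraries may be technical. Poly-A RNA was sequenced, and the libraries held 25119655 to 35373076 counts.

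Igf2bp1 encodes an oncofetal RNA-binding protein that holds bound transcripts in the cytoplasm and can slow their decay. The 4 genes do unrelated work. Fhl1 is a LIM-domain scaffold protein of muscle, Igsf10 a large secreted immunoglobulin-domain protein, Afp the serum protein of the fetal liver and yolk sac, and Pop1 a protein subunit of the nuclear enzymes that cut precursor transfer RNA and ribosomal RNA.

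The transcript of Igf2bp1 itself was no lower in shIGF2BP1 than in shNT. Its counts were 37, 175 and 201 in shNT replicates 1 to 3 and 67, 35 and 311 in shIGF2BP1 replicates 1 to 3, and the groups overlapped. Its log2 fold change was 0.25 ± 0.79 (SE; edgeR adjusted p = 0.966). With shNT replicate 1 left out it was -0.18, and with shIGF2BP1 replicate 3 left out -1.24. In what follows shIGF2BP1 means the libraries labelled so, and all directions compare labels, not a measured loss of Igf2bp1. Across the 6 libraries, which span both groups, Pearson's r between log2 CPM of Igf2bp1 and that of the 4 genes ran from -0.25 to -0.04. Igf2bp1 was lowest in shIGF2BP1 replicate 2 and highest in shIGF2BP1 replicate 3. The 4 genes were above shNT in both, which the rule that chose them required. The rule also fixed the group difference that enters these r values, so they cannot show whether the 4 genes follow Igf2bp1.

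The promoter sequences of 3 of the 4 genes are shown because promoter elements are what is best known of the regulation of Afp, and because the 3 windows differ in make-up. They are the 250 bases before the RefSeq start on GRCm38.p6, read 5′ to 3′ on the gene's strand. Capitals mark matches to motifs searched on both strands in the RefSeq windows, which run from 250 bases before to 50 after each start: the TATA box TATAAA, the CCAAT box, the GC box GGGCGG, the E-box CACGTG and the AP-1 site TGACTCA. Only these general motifs were searched, not the sites of the liver factors that act on Afp. No matches overlapped each other. The windows lie at chr5:90490464-90490713 on the plus strand for Afp, at chr3:59344257-59344506 on the minus strand for Igsf10 and at chrX:56779433-56779682 on the plus strand for the first of the RefSeq starts of Fhl1. Pop1 is named only.
Afp: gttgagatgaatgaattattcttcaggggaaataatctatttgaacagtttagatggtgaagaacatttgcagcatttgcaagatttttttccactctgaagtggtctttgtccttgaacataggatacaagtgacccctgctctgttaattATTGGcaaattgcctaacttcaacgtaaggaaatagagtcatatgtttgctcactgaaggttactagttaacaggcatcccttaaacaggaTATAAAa
Igsf10: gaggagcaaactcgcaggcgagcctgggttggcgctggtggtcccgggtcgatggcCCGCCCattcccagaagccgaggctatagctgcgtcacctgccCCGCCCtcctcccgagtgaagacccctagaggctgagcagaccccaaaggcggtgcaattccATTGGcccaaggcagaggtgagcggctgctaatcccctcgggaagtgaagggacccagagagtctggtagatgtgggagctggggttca
Fhl1: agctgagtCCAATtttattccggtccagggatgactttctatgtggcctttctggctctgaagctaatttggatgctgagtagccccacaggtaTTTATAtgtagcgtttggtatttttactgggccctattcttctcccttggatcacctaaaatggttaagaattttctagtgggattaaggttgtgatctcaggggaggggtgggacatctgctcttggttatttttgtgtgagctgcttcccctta

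The Afp window held a CCAAT box on the opposite strand and a TATA box. The TATA box began 30 bases before the GENCODE start of the gene and the CCAAT box 121 bases before it. Counted from the RefSeq start, which lies 23 bases further upstream, they began at -7 and -98. The Igsf10 window held 2 GC boxes and 1 CCAAT box, all on the opposite strand, and no TATA box. The Fhl1 window held a CCAAT box and, on the opposite strand, a TATA box. It lies 47.9 kb inside the GENCODE gene, since RefSeq starts this gene further downstream, and the other RefSeq start of Fhl1, 54.7 kb inside it, had no match. No window held an E-box or an AP-1 site. Of all 32851 RefSeq windows of that length, 37.4% held a CCAAT box, 35.7% a GC box, 13.6% a TATA box, 7.15% an E-box and 5.20% an AP-1 site. The GC content was 40.0% for Afp, 63.0% for Igsf10 and 44.0% for the Fhl1 window, beside a median of 52.7% over all windows. The matches are descriptions of letters, and no motif was shared by all 3 genes except the CCAAT box.

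Fhl1 (ENSMUSG00000023092, GRCm38 chrX:56731787-56793346, plus strand) encodes four-and-a-half-LIM-domains protein 1, which binds other proteins at the sarcomere and in the nucleus. It is abundant in skeletal and heart muscle, rises in muscle growth, and is mutated in X-linked myopathies. The shNT libraries held 92, 63 and 46 counts, or 3.10, 1.85 and 1.39 CPM. The shIGF2BP1 libraries held 278, 349 and 311 counts, or 10.6, 9.90 and 11.3 CPM. The shNT libraries differed from each other more than the shIGF2BP1 libraries did, with a coefficient of variation of 41.9% against 6.78%. The means were 2.11 ± 0.885 and 10.6 ± 0.72 CPM (SD, n = 3 each). On the log2 scale the fitted change was 2.33 ± 0.38 (SE). The ratio of pooled normalised counts was 5.08, with a 95% counting interval from 4.36 to 5.95. The lowest shIGF2BP1 library stood 3.19-fold above the highest shNT library, the widest such gap among the 35 genes.

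Igsf10 (ENSMUSG00000036334, chr3:59316735-59344394, minus strand) is known from bone progenitor cells under mechanical load and from families with delayed puberty, where its loss disturbs the migration of gonadotropin-releasing hormone (GnRH) neurons. The counts were 135, 179 and 107 in shNT and 522, 587 and 304 in shIGF2BP1. Those are 4.55, 5.25 and 3.24 CPM against 19.9, 16.7 and 11.1 CPM. Within shIGF2BP1, replicate 3 was the lowest, and it still stood 2.11-fold above the highest shNT library. Mean expression was 4.35 ± 1.02 and 15.9 ± 4.46 CPM (SD, n = 3 each), with a log2 fold change of 1.87 ± 0.33 (SE) and a pooled ratio of 3.66 (95% counting interval 3.28 to 4.09). Med12l, on the opposite strand, shares 1948 bases with Igsf10 and had 6, 30 and 21 counts in shNT and 27, 131 and 30 in shIGF2BP1. Its groups did not overlap either, at 0.573 ± 0.344 and 1.95 ± 1.53 CPM (SD of 3 libraries; edgeR unadjusted p = 0.0276, adjusted p = 0.681). Which strand setting was used in counting is not given in the sources used here, and reads in the shared stretch cannot be told apart.

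Afp (ENSMUSG00000054932, chr5:90490737-90508907, plus strand) encodes alpha-fetoprotein. It is made in large amounts by yolk sac endoderm and fetal liver, is shut off soon after birth, and returns in liver and germ cell tumours. Its counts were 250, 251 and 151 in shNT and 883, 567 and 633 in shIGF2BP1. In CPM these are 8.42, 7.37 and 4.57 against 33.7, 16.1 and 23.1. The shIGF2BP1 libraries were spread more widely for Afp than for the other 3 genes, with a coefficient of variation of 36.5%, and replicate 1 was the highest. The lowest of them was 1.91-fold above the highest shNT library. The means were 6.79 ± 1.99 and 24.3 ± 8.86 CPM (SD, n = 3 each). Afp thus had a fitted log2 change of 1.84 ± 0.34 (SE) and a pooled ratio of 3.48 (95% counting interval 3.18 to 3.81). Without shIGF2BP1 replicate 1 the log2 fold change was 1.53. An antisense gene, Gm43449, spans 9820 of the bases of Afp. It has no entry in the deposited counts and could not be analysed.

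Pop1 (ENSMUSG00000022325, chr15:34495304-34530648, plus strand) encodes the largest protein subunit of RNase P, which removes the 5′ leader of precursor transfer RNA, and of RNase MRP, which cuts precursor ribosomal RNA. It also binds telomerase RNA, and its mutation causes a severe skeletal dysplasia. Its counts were 886, 978 and 838 in shNT and 2111, 2079 and 1881 in shIGF2BP1. The corresponding levels were 29.9, 28.7 and 25.3 CPM and 80.5, 59.0 and 68.6 CPM. The shNT libraries lay close together, with a coefficient of variation of 8.39%, and the lowest shIGF2BP1 library was 1.98-fold above the highest of them. The means were 28.0 ± 2.35 and 69.4 ± 10.8 CPM (SD, n = 3 each). The log2 fold change of 1.31 ± 0.21 (SE) and the pooled ratio of 2.45 (95% counting interval 2.34 to 2.56) were the smallest of the 4, and the counts behind them the largest.

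**Figure D1:**
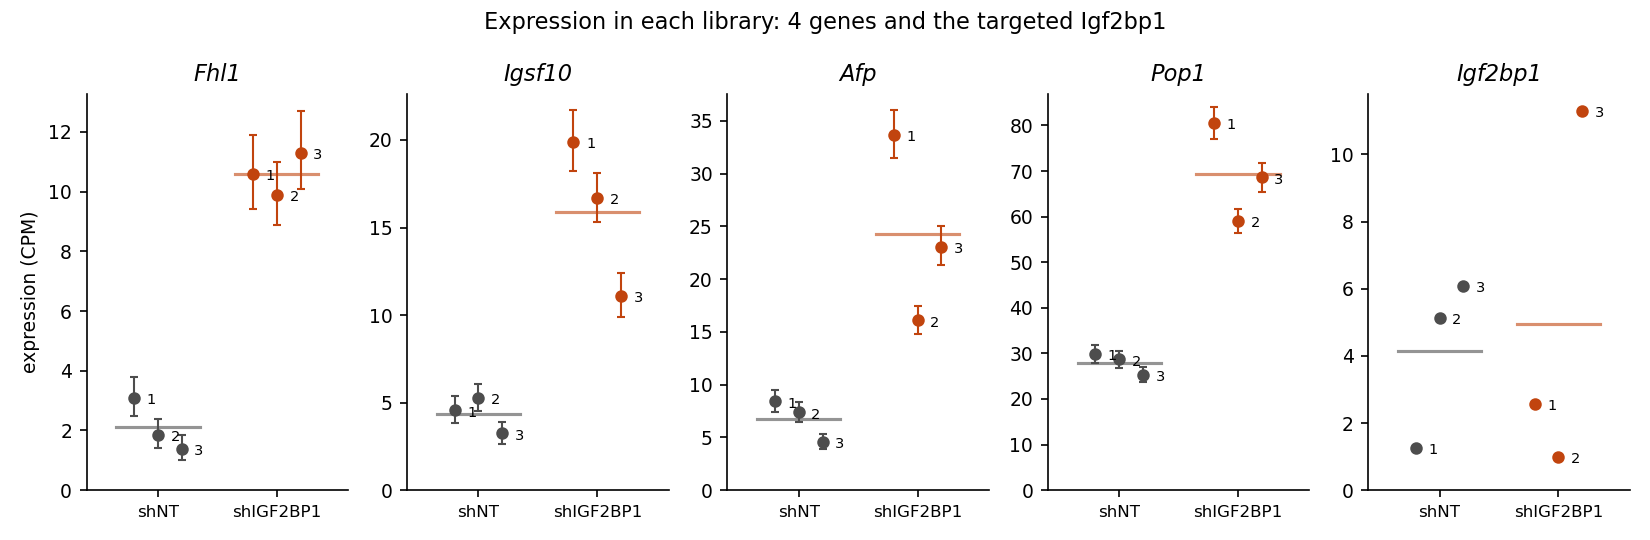
Expression of Fhl1, Igsf10, Afp, Pop1 and the targeted Igf2bp1 in each of 6 libraries (CPM, linear axis from 0). Points are libraries numbered by replicate, bars on the 4 genes are 95% counting intervals, and horizontal lines are group means. The groups do not overlap for the 4 genes, which were chosen for that, and overlap for Igf2bp1.

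The 4 genes differed in level. Per kilobase of exon, mean shNT levels were 7.37 ± 0.618 CPM for Pop1, 2.01 ± 0.592 for Afp, 0.569 ± 0.238 for Fhl1 and 0.428 ± 0.101 for Igsf10 (SD, n = 3). In shIGF2BP1 the order was the same, with 18.3 ± 2.85 for Pop1, 7.21 ± 2.63 for Afp, 2.86 ± 0.194 for Fhl1 and 1.56 ± 0.44 for Igsf10. Fhl1 and Igsf10 are neighbours in that order whose shNT ranges overlapped, at 0.375 to 0.835 and 0.319 to 0.518 CPM per kilobase. The other neighbours did not overlap within either group. By mean CPM over all libraries, 24.2% of tested genes were lower than Fhl1, 28.6% lower than Igsf10, 35% lower than Afp and 61.0% lower than Pop1, so that 3 of the 4 lay in the lower part of the expressed genes.

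Within shNT, replicate 3 was the lowest library for all 4 genes, and the highest was replicate 2 for Igsf10 and replicate 1 for the other 3. In shIGF2BP1, replicate 1 was the highest for Igsf10, Afp and Pop1, and replicate 3 for Fhl1. Replicate 2 was the lowest for Fhl1, Afp and Pop1, and replicate 3 for Igsf10. The SD of log2 CPM within groups was 0.41 for Fhl1, 0.39 for Igsf10, 0.50 for Afp and 0.18 for Pop1, beside a median of 0.33 over all genes tested. Pop1 was steadier than most genes, since only 14.4% had a smaller SD, while 63.1%, 61.0% and 74.1% had a smaller SD than Fhl1, Igsf10 and Afp. When each library was left out in turn, the log2 fold change ran from 2.1 to 2.71 for Fhl1, from 1.67 to 2.07 for Igsf10, from 1.53 to 2.07 for Afp and from 1.19 to 1.42 for Pop1. Leaving out shNT replicate 3 gave the lowest value for Fhl1, and leaving out shIGF2BP1 replicate 1 the lowest for the other 3.

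Of the 35 genes, 1 had a larger log2 fold change than Fhl1, while Igsf10, Afp and Pop1 ranked 4, 5 and 13. A further 15 genes reached the same mean and fold change with overlapping groups. The genes nearest the boundary of the rule were Dnm3, Ttll3 and Aoc2 inside it, with gaps of 1.04, 1.06 and 1.06, and Gm12940, Map2k6 and Pcdh18 outside it, with 0.996, 0.985 and 0.976. Dnm3, a dynamin, ran from 10.0 to 17.4 CPM in shNT and from 18.1 to 37.3 CPM in shIGF2BP1. Map2k6, a kinase upstream of p38, ran from 4.14 to 10.6 CPM and from 10.4 to 18.3 CPM.

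The edgeR quasi-likelihood test across all genes called 0 genes higher in shIGF2BP1 at an adjusted p under 0.05, which is 0% of genes tested, and 3 in either direction, which is 0.0223%. At an unadjusted p under 0.05 it counted 962 genes in either direction, or 7.16%, split into 536 lower, 422 higher and the 4. The 4 are set apart because the gap that chose them makes a low p likely. With DESeq2 39 genes were called higher, and with limma-voom 0. All 3 genes called by edgeR were lower in shIGF2BP1. Calls of the 4 at the adjusted threshold are left out for every fit, since the gap chose them. Of the 63 tested genes in the lists of complexes, families and regulators below, the 4 left out, 0 were called by edgeR, DESeq2 or limma-voom.

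**Figure D2:**
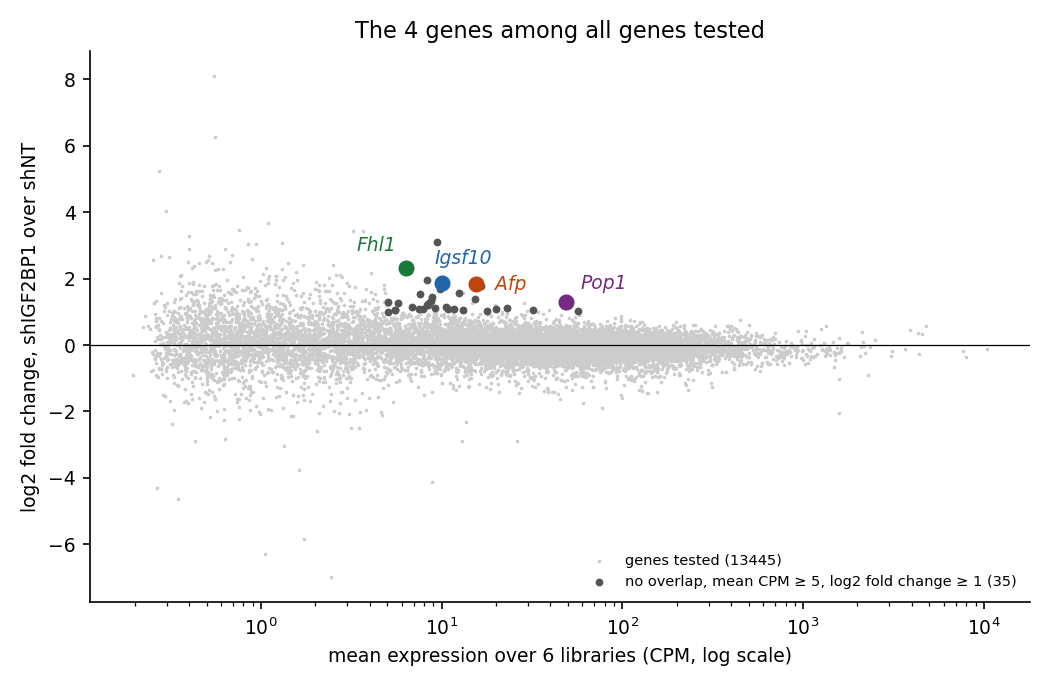
Log2 fold change of shIGF2BP1 over shNT against mean expression over 6 libraries (CPM, log axis) for the 13445 genes tested (grey). The 35 genes with no overlap between groups, a mean of at least 5 CPM and a log2 fold change of at least 1 are dark, and the 4 genes, which are among them, are coloured, with log2 fold changes from 1.31 to 2.33.

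No other tested gene of the enzymes that Pop1 belongs to passed the edgeR test at an adjusted p under 0.05. Of 11 other tested genes of RNase P and RNase MRP, 10 had a negative log2 fold change and 1, Rpp25l, a positive one (0.24). Over all tested genes besides the 4, 6925 of 13441 were negative. The negative protein subunits ran from -0.23 to -0.07, each smaller in size than its SE. The median of the 11 genes was -0.17, beside -0.01 over all genes tested, and 0 of 11 passed the edgeR test, also at an unadjusted p under 0.05. The protein subunits Rpp14 and Rpp30 had 21.8 ± 2.51 and 44.0 ± 6.50 CPM in shNT and 18.9 ± 0.492 and 39.0 ± 8.75 CPM in shIGF2BP1 (SD of 3 libraries; edgeR adjusted p = 0.898 and 0.918). Pop4, another shared subunit, was at 30.2 ± 7.99 and 27.8 ± 3.90 CPM. Rpph1 and Rmrp, the RNA subunits, are not polyadenylated as a rule and were read at few counts. Rpph1 had 33, 30 and 500 counts in shNT and 32, 38 and 52 in shIGF2BP1. Rmrp had 10, 32 and 356 against 30, 34 and 26. The high counts of both were in shNT replicate 3 alone. Their log2 fold changes of -2.03 and -1.98 (edgeR adjusted p = 0.705 and 0.744) became 0.49 and 0.66 without that library.

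Of 7 further genes of transfer RNA end processing, 6 had a negative log2 fold change and 1 a positive one, with a median of -0.21, and 0 passed the edgeR test at an adjusted or unadjusted p under 0.05. Elac1 and Elac2, which trim the 3′ end, had 27.4 ± 5.40 and 59.8 ± 6.63 CPM in shNT and 21.1 ± 3.92 and 48.7 ± 6.16 CPM in shIGF2BP1 (edgeR adjusted p = 0.807 and 0.814). Of 7 tested genes of telomerase, 5 were positive and 2 negative, with a median of 0.12 and 0 past either threshold. The reverse transcriptase Tert was at 14.4 ± 7.68 and 17.2 ± 2.32 CPM (edgeR adjusted p = 0.922). Gar1, an H/ACA protein, was at 114 ± 33.1 and 91.7 ± 10.4 CPM (edgeR adjusted p = 0.837).

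Among the relatives of Fhl1, 8 other LIM-only genes were tested, with 3 positive and 5 negative log2 fold changes, a median of -0.24 and 0 past either threshold. The closest paralogues tested, Fhl2 and Fhl3, had log2 fold changes of 0.38 ± 0.37 and 0.23 ± 0.27 (SE). Csrp2, a LIM protein of smooth muscle, was at 193 ± 163 CPM in shNT and 98.4 ± 41.0 CPM in shIGF2BP1, and Lims1, an adaptor of integrin adhesions, at 133 ± 38.4 and 92.3 ± 22.8 CPM (SD of 3 libraries; edgeR adjusted p = 0.772 and 0.75). Csrp2 was highest in shNT replicate 1, and its log2 fold change of -0.97 became -0.039 without that library. Striated muscle genes, the usual company of Fhl1, were read at few counts: 1 of 14 was tested, 5 were at 0 in all libraries, and their summed level was 5.58 to 6.98 CPM in shNT and 4.27 to 5.13 CPM in shIGF2BP1. The tested one, the intermediate filament gene Des, was at 5.75 ± 0.751 and 4.16 ± 0.701 CPM (edgeR adjusted p = 0.831).

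Of 8 other tested genes for proteins with leucine-rich repeats and immunoglobulin domains, 4 had a positive and 4 a negative log2 fold change, with a median of -0.06 and 0 past an edgeR adjusted p of 0.05. Lrrn3 alone had an unadjusted p under 0.05, at 0.281 ± 0.171 CPM in shNT and 0.901 ± 0.215 CPM in shIGF2BP1 (SD, n = 3 each; edgeR adjusted p = 0.658), a level of few reads. Of all genes tested, 7.16% had such an unadjusted p. Lrig2 was at 64.4 ± 22.7 and 43.0 ± 7.76 CPM (edgeR adjusted p = 0.71).

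Genes of GnRH neuron migration, with which Igsf10 is grouped in delayed puberty, had 5 positive and 6 negative log2 fold changes among 11 tested besides Igsf10, a median of -0.00 and 0 past an edgeR adjusted p of 0.05. At an unadjusted p under 0.05, 1 was higher and 2 lower, and the groups did not overlap for these 3, beside 7.16% of all genes at that p, 6.06% higher without overlap and 5.59% lower. Chd7, a chromatin remodeller, was at 52.1 ± 7.49 CPM in shNT and 72.5 ± 10.0 CPM in shIGF2BP1 (edgeR adjusted p = 0.686). The semaphorin co-receptor Plxna1 was at 218 ± 35.7 and 140 ± 16.2 CPM (edgeR adjusted p = 0.574). Fgfr1, a receptor of fibroblast growth factors, was at 101 ± 5.69 and 70.8 ± 12.0 CPM (edgeR adjusted p = 0.663). The hormone's own gene Gnrh1 was at 0.455 ± 0.528 and 0.62 ± 0.336 CPM (edgeR adjusted p = 0.943).

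Afp shares its chromosomal cluster and its liver enhancers with Alb and Afm, and Gc belongs to the same family of serum proteins. Alb, Afm and Gc had 0 counts in all 6 libraries, while Afp had 151 to 883. A count of 0 allows up to 3 counts, which is 0.0851 to 0.114 CPM in these libraries, for counting error only. The activators known from liver were mostly missing too. Of 12 activators listed, 3 were tested. Foxa1, Foxa2 and Cebpa had 0 counts in all libraries, and Hnf4a had 1 count in 1 shIGF2BP1 library. Cebpb, a leucine-zipper factor, was at 143 ± 50.4 CPM in shNT and 88.0 ± 27.6 CPM in shIGF2BP1 (SD, n = 3 each; edgeR adjusted p = 0.687). Gata6 was at 24.8 ± 2.41 and 20.8 ± 1.34 CPM (edgeR adjusted p = 0.868), lower without overlap as were 5.59% of all genes tested. Ctnnb1 was at 374 ± 84.7 and 390 ± 34.2 CPM (edgeR adjusted p = 0.973).

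Of the repressors of Afp, Zbtb20, which silences Afp in liver after birth, was at 163 ± 77.4 CPM in shNT and 127 ± 21.5 CPM in shIGF2BP1, and Trp53 at 174 ± 15.9 and 145 ± 13.7 CPM (SD of 3 libraries; edgeR adjusted p = 0.886 and 0.836). Zhx2, the product of the mouse locus that sets adult Afp levels, had 1 count over the 6 libraries. Of the genes that Zhx2 represses together with Afp in liver, H19 had 0 counts in all libraries, Gpc3 had 3, 6 and 1 counts in shNT and 2, 2 and 17 in shIGF2BP1, and Lpl was at 146 ± 32.2 and 144 ± 18.2 CPM (edgeR adjusted p = 0.992). Of 5 other oncofetal genes tested, Igf2bp1 included, 4 had a positive and 1 a negative log2 fold change, with a median of 0.22 and 0 past either threshold. The placental gene Plac1 was at 1.48 ± 0.701 and 4.02 ± 4.10 CPM, Lin28b, a blocker of let-7 maturation, at 13.3 ± 9.03 and 15.5 ± 5.00 CPM, and Hmga2 at 75.2 ± 44.5 and 69.3 ± 10.4 CPM (edgeR adjusted p = 0.753, 0.943 and 0.964). For Plac1 the log2 fold change was 1.43 with all libraries and 0.18 with shIGF2BP1 replicate 3 left out.

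**Figure D3:**
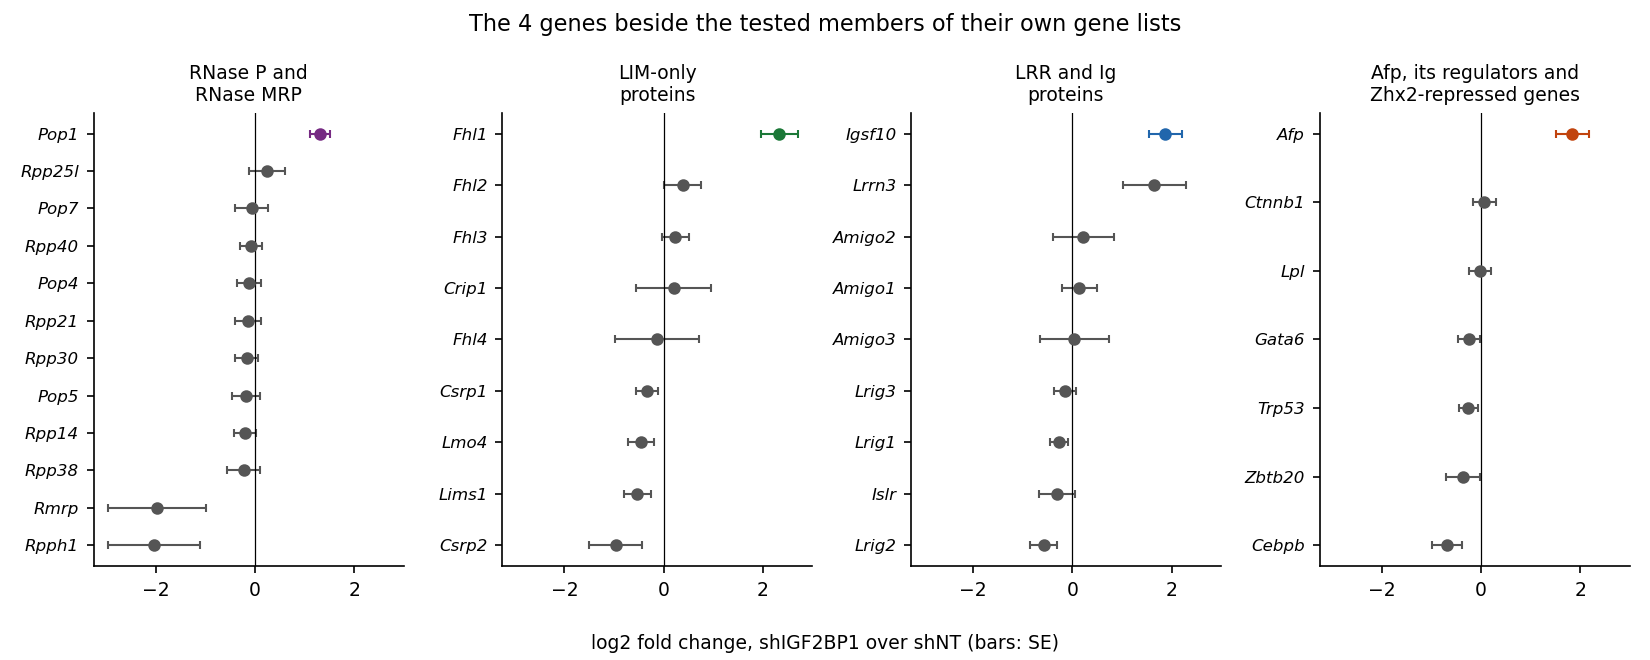
Log2 fold changes of shIGF2BP1 over shNT (points, bars are SE) for Pop1, Fhl1, Igsf10 and Afp (coloured) beside the tested genes of their complexes, families or regulators (grey). Each of the 4 genes has the highest value in its panel, as the choice by high values makes likely. Of the 11 other RNase P and MRP genes 10 lie below 0, Rpph1 and Rmrp through shNT replicate 3 alone. Over all tested genes besides the 4, 6925 of 13441 lie below 0.

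The markers of the labelled cell type were present in part. Of 20 neuroblastoma and sympathetic genes 8 were tested, with a summed level of 423 to 631 CPM in shNT and 599 to 602 CPM in shIGF2BP1. Hand2, at 333 ± 127 and 439 ± 15.6 CPM, and Mycn, at 39.2 ± 11 and 44.6 ± 5.85 CPM, were expressed, while Hand1, Th, Dbh, Chga and Elavl4 were at 0 in all libraries. Of 17 hepatocyte and yolk sac genes, which would mark the usual sources of Afp, 2 were tested and 12 were at 0 in all libraries, Alb among them. Their summed level was 11.8 to 21.2 CPM in shNT and 19.3 to 24.8 CPM in shIGF2BP1, most of it from Cubn at 15.9 ± 5.81 and 20 ± 2.58 CPM (SD, n = 3 each; edgeR adjusted p = 0.884). Summed levels of the other marker lists overlapped between the groups for 9 fibroblast genes (634 to 956 against 579 to 1057 CPM), 6 endothelial genes (37.4 to 54.5 against 31.5 to 73.8 CPM) and 6 Schwann genes (11.7 to 12.7 against 6.13 to 13.1 CPM). Single genes in these lists had unadjusted p values under 0.05, as had 7.16% of all genes tested, with none past the adjusted threshold. Among fibroblast genes Postn had a log2 fold change of 3.48, Pdgfra of -0.69 and Pdgfrb of -0.87 (edgeR adjusted p = 0.537, 0.687 and 0.695), and the endothelial gene Kdr had -1.95 (edgeR adjusted p = 0.524). Postn was read at few counts, with 0, 8 and 4 in shNT and 15, 11 and 91 in shIGF2BP1, most of them in shIGF2BP1 replicate 3. The summed level of the 6 leukocyte genes was lower in shIGF2BP1, at 3.78 to 5.62 against 7.78 to 14.8 CPM, through Cd68 (edgeR adjusted p = 0.403). Cd68 was lower without overlap, as were 5.59% of all genes tested. Csf1r had 0, 4 and 3 counts in shNT and 3, 2 and 19 in shIGF2BP1, and 3 of the 6 were at 0 in all libraries. The part of these markers in the levels of the 4 genes was not tested. In bulk RNA, more cells with a transcript and more transcript per cell cannot be told apart.

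No tested chromosomal neighbour of the 4 genes differed past the threshold. Genes that overlap one of the 4, such as Med12l, were not counted here. Among the 10 nearest protein-coding genes of each without such overlap (5 on either side), 4 were tested around Fhl1, 0 around Igsf10, 3 around Afp and 6 around Pop1, and 0 passed the edgeR test, also at an unadjusted p under 0.05, or had groups without overlap. The median log2 fold change was 0.07 around Fhl1, -0.08 around Afp and 0.00 around Pop1. Rida, whose start lies 49 bases from that of Pop1 on the opposite strand, was at 24.7 CPM in shNT and 29.5 CPM in shIGF2BP1, and its log2 fold change was 0.26 (edgeR adjusted p = 0.889). Map7d3, 4.51 kb from Fhl1, had 0 counts in all libraries. Around Igsf10, 8 of the 10 neighbours were at 0 in all libraries.

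In a wider window of 5 Mb on either side, a width chosen after the data were seen, the median log2 fold change was -0.00 over 26 tested genes around Fhl1, -0.01 over 32 around Igsf10, 0.08 over 38 around Afp and -0.05 over 39 around Pop1. Groups did not overlap for 7 higher genes and 1 lower gene around Igsf10, for 1 higher and 2 lower around Afp, for 1 of each around Pop1 and for 0 around Fhl1. The share that was higher without overlap was 21.9% around Igsf10, Med12l included, 2.63% around Afp and 2.56% around Pop1, beside 6.06% over all genes tested. The share that was lower was 3.12%, 5.26% and 2.56%, beside 5.59%. That difference around Igsf10 was not tested. The chromosome medians were -0.05 for X, -0.08 for 3, -0.00 for 5 and 0.06 for 15.

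**Figure D4:**
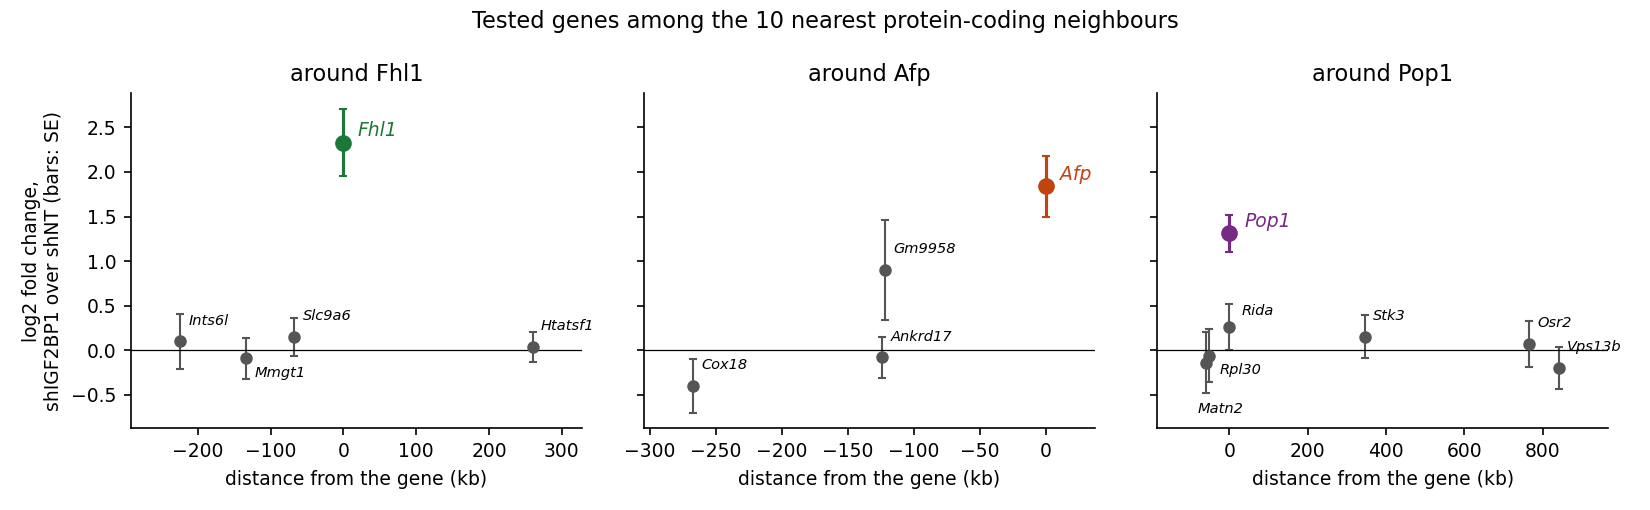
Log2 fold changes of shIGF2BP1 over shNT (points, bars are SE) for Fhl1, Afp and Pop1 (coloured, at 0) and the tested genes among their 10 nearest protein-coding neighbours, by distance in kb, with negative distances toward lower coordinates. Rida, 49 bases from Pop1, has 0.26 against 1.31 for Pop1.

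The profiles of the 4 genes over the 6 libraries resembled each other, as the rule makes likely. Pearson's r between log2 CPM of pairs of them ran from 0.93 (Igsf10 with Fhl1 and with Afp) to 0.98 (Pop1 with Afp). The 6 libraries differ in depth and group, and the group difference that the rule fixed enters each r. Among 10479 genes with a mean of at least 5 CPM, the 5 most like Fhl1 included Vash2, a vasohibin, with r = 0.985. Its level was 23.1 ± 1.77 CPM in shNT and 34.6 ± 2.42 CPM in shIGF2BP1 (SD, n = 3 each). Lrrc1, Kazn and Atad3a followed, with r of 0.98. The gene most like Igsf10 was Gxylt2, a xylosyltransferase, with r = 0.991 and means of 8.99 and 15.9 CPM, and the next included Ints4, Tmppe and Nol4l.

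For Afp the most similar gene was Wrnip1, a partner of the Werner helicase, with r = 0.99 and means of 65.9 and 83.5 CPM, followed by Rab32, Eif3j1, Rtf1 and Kyat3. For Pop1 it was Nol4l, with r = 0.995 and means of 7.63 and 14.1 CPM, followed by Sh3rf1, Afp, Plekha8 and Tyro3. The groups did not overlap for any of the genes named here for likeness, which is a consequence of choosing them by likeness to genes that were themselves chosen so. Nol4l was the only gene named for 2 of the 4, and Afp was the only 1 of the 4 named for another.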

How the data were processed

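Poly-A RNA of 6 M1 libraries was sequenced as paired reads after a stranded mRNA kit, per the labels' protocols. Reads were handled with bcl2fastq, HISAT2 2.1.0 and HTSeq on GRCm38, per the submitters' processing notes. The annotation release and the strand setting were not given in the sources used here. The authors deposited raw counts per gene, 1 column per library, joined here by library name. The table has 43721 rows, of which 92 are spike-ins with 0 counts. GENCODE M21 symbols matched 42462 of 43629 gene IDs, and unmatched IDs held 0.155% of reads.

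CPM values were computed from the deposited counts with TMM factors. All genes kept by filterByExpr (minimum count 10, minimum total 15) were put through the two-sided quasi-likelihood F test of edgeR 4.0.16 (R 4.3.3) without covariates, with Benjamini-Hochberg adjustment over 13445 genes. The common biological coefficient of variation was 0.29. The fits were tested on simulated data. Likeness used log2 CPM with a prior count of 2. The counting intervals hold for counting error only, as PCR copies were not marked by molecular identifiers. Alternatives were RLE factors, library size only, no filter, a mean of 5 CPM, each library left out in turn, the replicate number as a block, DESeq2 1.42.0, limma-voom (limma 3.58.1) and an adjusted p of 0.01.

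The 4 genes, gene lists and tests were chosen with earlier results of these data known. Named genes are the 4, Igf2bp1, up to 4 genes of each list by smallest edgeR p, the 5 genes most like each of the 4 and the 3 on either side of the rule's boundary; Fhl2, Fhl3, Gnrh1, Rpp25l, Pop4, genes at or near 0 counts, neighbours and markers were named after their values were seen. Some genes that this rule takes are not reported here. Promoters are from RefSeq on GRCm38.p6, which matched 3 of the 4 genes.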

Additional observations from a re-analysis of the deposited data

How the results depend on the processing

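Fhl1, Igsf10, Afp and Pop1 kept the sign of their log2 fold change under all 13 alternatives, which their choice by the gap between groups makes likely and which shows no stability. The count of 3 genes called by edgeR became 138 without a filter, 1 at a mean of 5 CPM, 82 with DESeq2, 1 with limma-voom and 1 at an adjusted p of 0.01. It ran from 1 to 5 when a library was left out, with 5 without shNT replicate 3. Same-numbered libraries correlated at 0.19, -0.09 and 0.28 in their deviations from the group means, and differently numbered ones at -0.37 to 0.22. These values do not settle whether the numbers pair the libraries. A fit with the replicate block called 18 genes (6 higher, 12 lower). The 815 genes higher without overlap became 1027 to 2054 when a library was left out and fewer comparisons had to hold. By library size only, 1212 genes were higher and 480 lower without overlap, beside 815 and 751. Of 63 tested list genes besides the 4, 5 had an unadjusted p under 0.05, beside 962 of all 13445 genes tested (7.16%). The count of 5 became 3 by library size only, 12 without a filter, 3 at a mean of 5 CPM and 0 to 12 when a library was left out. Igf2bp1 turned to -0.047 with the replicate block, -0.24 with limma-voom, and to -1.24 without shIGF2BP1 replicate 3 and -0.18 without shNT replicate 1 (range over left-out libraries -1.24 to 0.76). Rpph1 and Rmrp turned to 0.49 and 0.66 without shNT replicate 3 (ranges -2.54 to 0.49 and -2.53 to 0.66). Lpl, near 0, turned to 0.066 by library size only and 0.0046 at a mean of 5 CPM, and to 0.0078 to 0.17 without shNT replicate 2 or shIGF2BP1 replicate 1 or 3 (range -0.15 to 0.17). Ctnnb1, also near 0, turned to -0.081 and -0.0094 without shNT replicate 3 or shIGF2BP1 replicate 1 (range -0.081 to 0.25). The cause was not tested.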
